A study of Mus musculus with 21 samples.

Results

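Clps, Pnlip, Amy2a5, Cpa1, Cpb1, Prss2, Ctrb1, Cela1, Cela2a and Cela3b encode digestive enzymes, or a cofactor of one, that the acinar cells of the exocrine pancreas make and secrete. Their transcripts are described here in mouse livers measured on 2-colour microarrays. The members were found by name and not by value: they are the non-control spots whose gene name in the scanner files is one of these 10 symbols. They came to 12 probes of the 55681 on the array, since Clps and Amy2a5 have 2 probes each, and to 10 of 34797 gene names.

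The 21 livers fall into 2 diet groups. The HF-Q group held 10 mice that ate a high-fat diet with quercetin, a plant flavonoid, at 0.33% of its weight for 12 weeks. The HF group held 11 mice that ate the high-fat diet without quercetin over the same time. All were adult male C57BL/6J mice, all had spent 3 weeks on a normal-fat diet beforehand, and all were fasted for 2 to 4 hours before they were killed. The study used 24 mice, of which the authors excluded 3 arrays for uneven hybridisation. On each array the RNA of 1 liver carried Cy5, and an equimolar mixture of RNA from the livers carried Cy3. Dyes were not swapped. A log2 ratio is thus the level of a transcript in 1 liver relative to its level in a mixture that contains that liver. The contrast of the diets asks how quercetin alters gene expression in the liver under a high-fat diet.

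Acinar cells fill the pancreas and store their products as inactive precursors in zymogen granules, which they release into the gut after a meal. Hepatocytes secrete plasma proteins and bile and are not known for making trypsin, pancreatic lipase or colipase. The acinar program is driven by the PTF1 complex, which holds the factors Ptf1a and Rbpjl, together with Bhlha15. In mice the pancreas is a soft, diffuse tissue that follows the stomach, duodenum and spleen.

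The 2 probes of Amy2a5 gave unlike results, so their sequences are shown, 5′ to 3′, as the array files give them, on mouse build NCBI37 (mm9) and the minus strand. The upper one, A_55_P1996314, lies at chr3:113084781-113084840 and is assigned to Amy2a5 alone. The lower one, A_55_P2139402, lies at chr3:113091400-113091459, and the files list transcripts of Amy1, the amylase gene of salivary gland and liver, beside Amy2a5 for it.
A_55_P1996314: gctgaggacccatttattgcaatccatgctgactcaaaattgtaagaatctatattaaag
A_55_P2139402: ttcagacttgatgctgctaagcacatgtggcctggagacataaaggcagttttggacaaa

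Probes of 2 members that stayed near background in most livers are shown as examples of probes that gave signal mainly in the high livers. The Prss2 probe lies at chr6:41473937-41473996 on the plus strand and a probe of Clps at chr17:28695761-28695820 on the minus strand, both on NCBI37.
Prss2 A_51_P418901: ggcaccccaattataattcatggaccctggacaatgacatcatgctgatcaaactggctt
Clps A_55_P2015877: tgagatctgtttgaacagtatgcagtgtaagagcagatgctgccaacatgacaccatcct

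The 250 bases before the members' starts were searched, on both strands, for the letters of the 2 boxes of a PTF1 site, CANNTG and TTTCCC, without overlap between them. RefSeq promoters of build GRCm38.p6 were matched for 9 of the 10 members. CANNTG occurred in 8 of these 9, against 66.2% of 32851 promoters of this length, and TTTCCC in 5 of 9, against 21.9%. Both began within 25 bases of each other in 3 of 9, against 4.01% of all promoters. Those 3 are printed with the matches in capitals: Cpa1 from chr6:30638968-30639217 on the plus strand, Ctrb1 from chr8:111691011-111691260 and Cela1 from chr15:100687921-100688170, both on the minus strand. A match describes letters and is not a measured site.
Cpa1: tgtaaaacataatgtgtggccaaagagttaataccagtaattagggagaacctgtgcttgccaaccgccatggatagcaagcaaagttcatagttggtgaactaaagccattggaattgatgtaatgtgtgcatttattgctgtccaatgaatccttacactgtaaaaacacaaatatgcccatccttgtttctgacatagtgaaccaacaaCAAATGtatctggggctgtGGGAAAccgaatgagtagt
Ctrb1: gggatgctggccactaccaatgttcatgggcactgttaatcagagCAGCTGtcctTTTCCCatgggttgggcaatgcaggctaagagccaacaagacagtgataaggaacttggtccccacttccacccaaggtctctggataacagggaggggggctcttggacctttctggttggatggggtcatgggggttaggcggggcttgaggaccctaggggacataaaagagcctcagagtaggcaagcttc
Cela1: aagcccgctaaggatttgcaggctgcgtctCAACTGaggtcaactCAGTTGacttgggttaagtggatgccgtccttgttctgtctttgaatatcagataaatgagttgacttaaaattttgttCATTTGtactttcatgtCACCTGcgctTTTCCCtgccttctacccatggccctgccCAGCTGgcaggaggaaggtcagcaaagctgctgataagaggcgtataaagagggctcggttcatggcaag

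On the arrays as a whole, 44.2% to 51.3% of probes had a Cy5 signal well above background by the scanner software's flag, and an array's median Cy5 signal was 62.2 to 71.8 against a local background of 33 to 36. The arrays lay on 3 slides and were scanned on 1 day. All 15 hepatocyte markers measured were well above background in every liver. The test of the diets was run on probes that cleared background in Cy5 in 10 livers or more of the 21. Of the 12 member probes 7 did so, which left 6 of the 10 genes. The other 5, for Pnlip, Cpb1, Prss2, Cela3b and the Clps probe A_55_P2015877, cleared background in 3 to 5 livers each and were read from a fit on all 55681 probes.

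Members were high in the same 4 livers, 1 of them HF-Q and 3 of them HF. HF 11 had the highest log2 ratio and HF 5 the next for 12 of 12 member probes. In 10 of 12 probes the next places were held by HF-Q 8 and HF 7, and the exceptions were the Amy2a5 probe shared with Amy1 and the Cela1 probe. The remaining 17 livers lay close together. These 4 livers were picked out after their values were seen, so the values below describe them and no test was made between the 4 and the rest. An outlier criterion applied within the HF-Q livers is reported near the end and is no such test. In RNA from a whole piece of tissue, more cells of a type and more RNA per cell cannot be told apart.

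**Figure D1:**
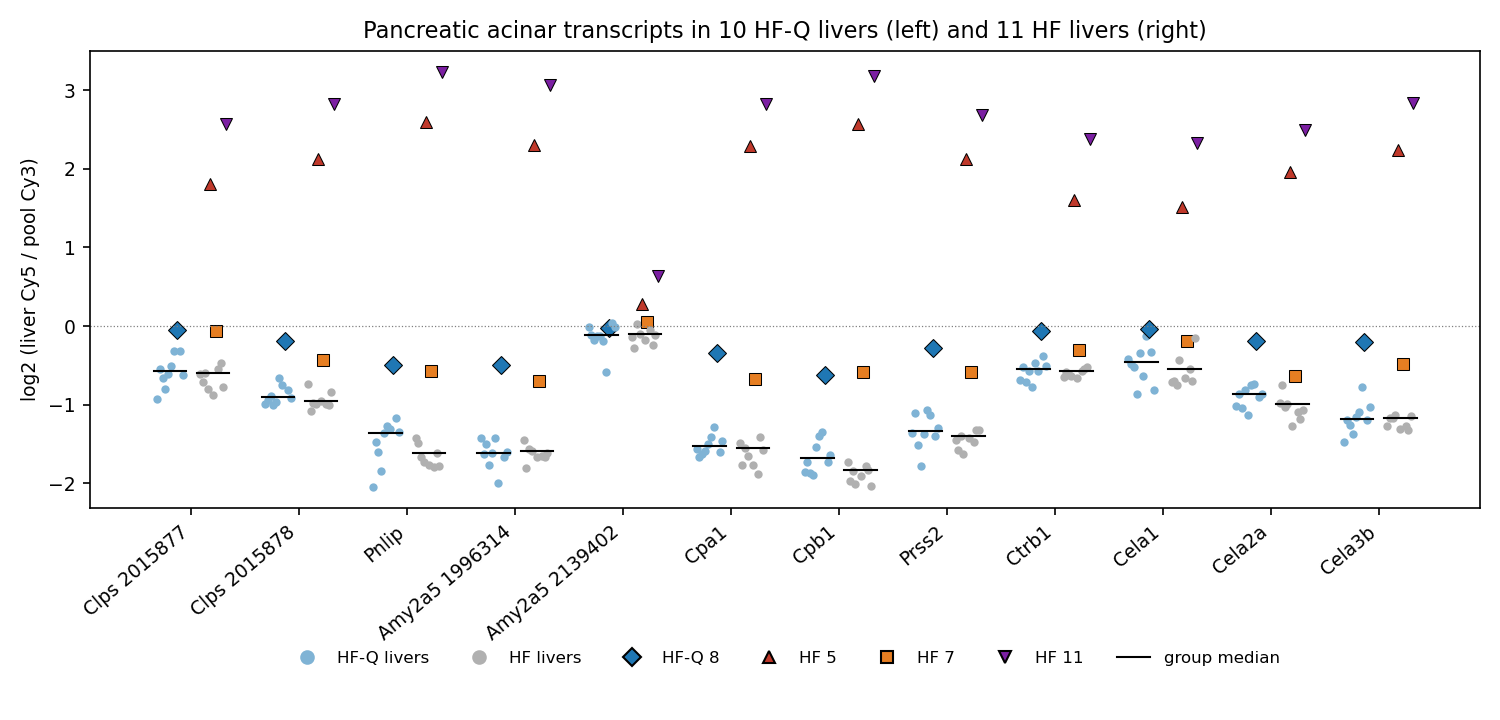
Log2 ratio of liver Cy5 to pool Cy3 (vertical axis) for each of the 12 member probes (horizontal axis), with 10 HF-Q livers left and 11 HF livers right at each probe, 1 point a liver, and a bar at the group median. HF 5 and HF 11 stand above 0 for every probe, HF-Q 8 and HF 7 lie between them and the other 17 livers for most, and the Amy2a5 probe A_55_P2139402 shows the smallest spread.

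Pnlip, the lipase that splits dietary triglyceride, is the clearest case. Its Cy5 signal had a lowest value of 41.9, a median of 52.6 and a highest of 143 in HF-Q livers, against 42.6, 53.5 and 3190 in HF livers. HF-Q 8 gave 143, while HF 11 gave 3190, HF 5 gave 2077 and HF 7 gave 143. No other liver exceeded 64.6, so the groups overlapped and differed in their highest values only. The log2 ratio of Pnlip was -0.50 in HF-Q 8, 3.24 in HF 11, 2.60 in HF 5 and -0.58 in HF 7, and it lay between -2.05 and -1.17 in the other 17 livers.

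Clps is colipase, the cofactor that anchors pancreatic lipase to fat droplets in the presence of bile salts. Its probe A_55_P2015878 was well above background in all 21 livers. The Cy5 signal ran from 212.5 through a median of 246 to 361 in HF-Q livers, against 199, 237 and 4831 in HF livers. HF 5 gave 3117 and HF 11 gave 4831, while HF-Q 8, at 361, and HF 7, at 350, stood just above the highest of the other livers, 330.02. The Clps probe printed above, A_55_P2015877, was near background in most livers and had the same livers on top: 893 in HF 11 and 607 in HF 5, then 82.7 in HF-Q 8 and 65.9 in HF 7, and 35.7 to 47.7 elsewhere.

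Amy2a5 is a pancreatic amylase, which cleaves starch. At the probe assigned to it alone the signal was 601 at its lowest, 873 at the median and 1752 at its highest in HF-Q livers, against 712, 892 and 25317 in HF livers. HF-Q 8 reached 1752, HF 5 16751 and HF 7 1623, and the highest of the other 17 livers was 1084. In the scanner software's processed Cy5 signal, corrected for background and dye, HF 11 was 34.05 times the median liver and HF 5 18.1 times.

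The Amy2a5 probe that the files also assign to Amy1 behaved otherwise. It was bright in every liver, from 1918 through 2694 to 2975 in HF-Q livers and from 2222 through 2666 to 4486 in HF livers. HF 5, at 3899, and HF 11, at 4486, were still its highest values, but they were 1.46 and 2.04 times the median liver in the processed signal. The signals of the 2 Amy2a5 probes cannot be set against each other as levels, because probes differ in brightness. Their log2 ratios, each relative to the pool, differed: 3.07 and 0.64 in HF 11, and 2.31 and 0.27 in HF 5.

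Cpa1 and Cpb1 encode carboxypeptidases, which trim amino acids from the end of peptides. For Cpa1 the signal had a lowest value of 53.7, a median of 69.7 and a highest of 224 in HF-Q livers, against 58.4, 77.5 and 3717 in HF livers. HF-Q 8 gave 224, HF 5 gave 2232 and HF 7 gave 173, and no liver apart from these and HF 11 passed 84.4. Cpb1 ran from 49.3 through 59.8 to 176 in HF-Q livers, against 46.5, 57.3 and 3853 in HF livers. HF 5 held 2326, and HF-Q 8, at 176, and HF 7, at 179, were almost level above a ceiling of 66.9 in the rest.

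Prss2 and Ctrb1 encode a trypsinogen and a chymotrypsinogen, precursors of the main proteases of pancreatic juice. Prss2 had signals of 49.1, 57.5 and 163 (lowest, median, highest) in HF-Q livers, against 48.1, 61.4 and 2596 in HF livers, with 1788 in HF 5 and 148 in HF 7. Ctrb1 was well above background in all livers. Its signal was 565, 717 and 941 in HF-Q livers, against 582, 692 and 8313 in HF livers. HF-Q 8, at 941, lay just above the range of the 17 livers, which reached 901, while HF 5 stood at 4688 and HF 7, at 820, lay inside it.

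Cela1, Cela2a and Cela3b encode elastase-type serine proteases. Cela2a gave 53.1, 80.0 and 136 (lowest, median, highest) in HF-Q livers, against 58.0, 65.8 and 1752 in HF livers, with 1087 in HF 5. Cela3b gave 40.8, 49.6 and 144 in HF-Q livers, against 44.3, 52.3 and 2128 in HF livers, with 1251 in HF 5. For both, HF-Q 8 and HF 7 were the next highest. Cela1 gave 87.9, 119 and 167 in HF-Q livers, against 84.0, 106 and 1360 in HF livers, with 743 in HF 5.

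Cela1 and Cela3b had single values that stood out among the low livers. Cela3b gave 91.3 in HF-Q 3, which cleared background, where the next of the 17 livers gave 57.6, but the Cy3 signal there was also its highest, 244, and the log2 ratio was -1.27. For Cela1, HF-Q 7, at 167, and HF 10, at 162, lay level with HF-Q 8, at 162, and exceeded HF 7, at 141. Over the 17 livers the SD of the log2 Cy5 level of Cela1 was 0.25, against 0.090 to 0.15 for the other 11 member probes.

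The excess in the high livers was compared between genes. The excess was taken as the scanner software's processed Cy5 signal, corrected for background and dye, minus the median of 21 livers. It was taken for 11 probes, leaving out the Amy2a5 probe shared with Amy1, a choice made after its values were seen. The excess in HF 11 was 1.84 to 2.47 times that in HF 5, with a median of 2.02 and a coefficient of variation of 10.1% over the 11 probes. The size of this factor depends on the signal used, and it is smaller in the raw signal. At Amy2a5 A_55_P1996314, HF 11 and HF 5 had processed signals of 14190 and 7561, and raw signals of 25317 and 16751. HF-Q 8 held 3.45% to 7.46% of the excess in HF 5 (median 5.87%), and HF 7 held 3.77% to 6.50% (median 5.19%). The coefficients of variation of these shares were 22.2% for HF-Q 8 and 14.5% for HF 7, so the proportions varied most between genes in HF-Q 8. At Ctrb1 and Cela1 a low liver exceeded both HF-Q 8 and HF 7 in the processed signal. At Clps A_55_P2015878 a low liver exceeded HF-Q 8 only. For Ctrb1 the signal was 311 in HF-Q 10, against 302.1 in HF-Q 8 and 302.6 in HF 7. For Cela1 it was 59.9 in HF-Q 7, against 46.2 and 44.5. For Clps A_55_P2015878 it was 112 in HF-Q 10, against 106 and 118. The shares thus do not set HF-Q 8 apart at these probes, nor HF 7 at Ctrb1 and Cela1. The processed signals were not normalized between arrays, so their order can differ from that of the log2 ratios. At Ctrb1 the log2 ratio was -0.51 in HF-Q 10, against -0.062 in HF-Q 8. At the rest of the 11 probes both HF-Q 8 and HF 7 exceeded every low liver.

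Ctrb1, at 2.42, and Cela1, at 2.47, had the highest ratios of HF 11 to HF 5. Prss2, at 1.84, and the Clps probe A_55_P2015877, at 1.86, had the lowest. HF 5 and HF 11 together held 52.3% to 93.9% of the processed Cy5 signal summed over 21 livers at the same 11 probes (median 89.1%), least for Ctrb1 and most for Pnlip. At the Amy2a5 probe shared with Amy1 they held 14.9%.

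**Figure D2:**
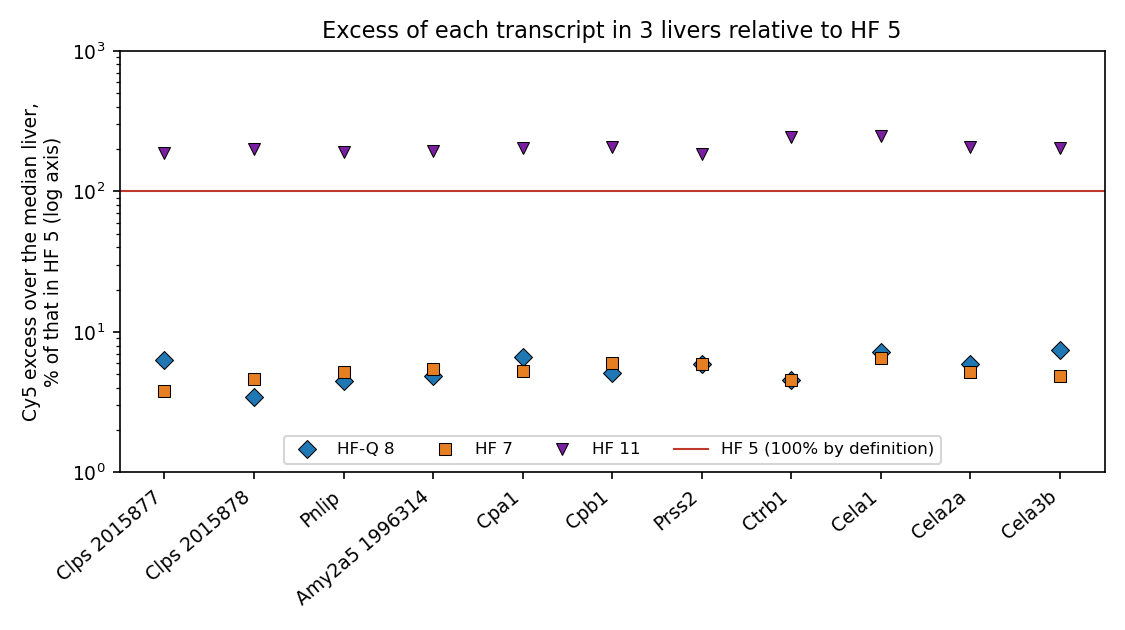
Excess of processed Cy5 (corrected for background and dye) over the median liver in HF-Q 8, HF 7 and HF 11, as a percentage of that in HF 5 (log axis), for 11 member probes. HF-Q 8 spans 3.45% to 7.46%, HF 7 3.77% to 6.50%, and HF 11 about 2 times the line of HF 5. At Ctrb1 and Cela1 a low liver, not shown, exceeded both HF-Q 8 and HF 7, and at Clps A_55_P2015878 one exceeded HF-Q 8 only.

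The Cy3 channel held the same mixture on every array and showed little of this spread. Over 21 arrays the SD of the log2 Cy5 level of a member probe had a median of 1.18, against 0.15 for the Cy3 level, and the ratio of the 2 SDs had a median of 7.41. Over 25726 kept probes the same medians were 0.13 for Cy5, 0.079 for Cy3 and 1.57 for the ratio. For 9 of 12 member probes the highest Cy3 level was still on the array of HF 11. Mean Cy5 over the livers was 0.97 to 1.25 times the Cy3 level of the mixture for the 12 probes, against a median of 1.01 over kept probes. The mixture contains the high livers, and the median HF-Q and the median HF liver had negative log2 ratios for all 12 probes.

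Few other transcripts were high in HF 5 and HF 11 together. Both livers exceeded each of the other 19 by at least 1 log2 unit at 27 of 55681 probes (0.0485%). Of these, 11 were member probes and 15 belonged to a list of other acinar genes. The list was drawn up with earlier results of these data known. The remaining probe, for Gm5771, was in neither. The list's probes there included those for Try4, Try5, Cela3a (Gm13011 in the files, 2 probes), Sycn, Reg1, Pnliprp1, Cel, Reg2, Prss1, Zg16, Ctrl, Gp2 and Pdia2. A further 7 probes exceeded by 0.5 to 1 log2 units, namely Prss1, Pdia2, Rnase1, Spink1, Gp2, Klk1b5 and Klk1. At 0 probes were both livers lower than all others by 0.5.

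**Figure D3:**
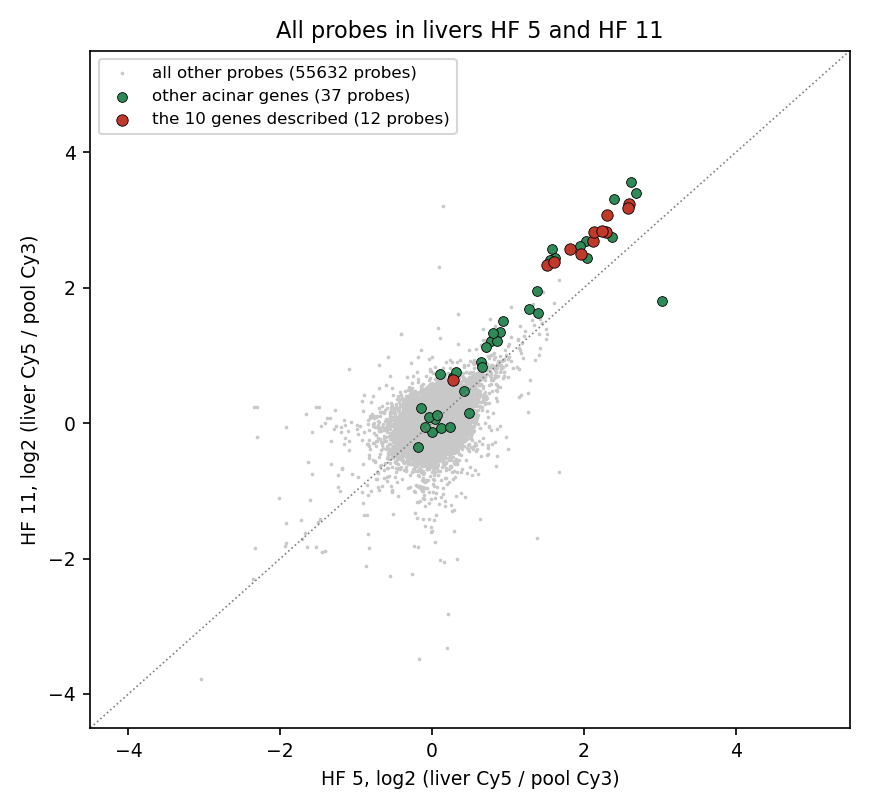
Log2 ratio in HF 11 (vertical) against HF 5 (horizontal) for all probes, 1 point a probe, with the 12 member probes in red, 37 probes of other acinar genes in green and the equality line dotted. Of the red points 11 lie far from the cloud and above the line, many green points lie among them, and the green point below the line is Reg2.

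Genes whose log2 ratio followed the members were sought among 25719 kept probes, by Pearson r over 21 livers with the mean of the 6 member genes kept by the filter, at the brightest probe of each, which for Amy2a5 is the one shared with Amy1. Since 2 livers carry most of that mean, r is given as a description with no p. The closest were Cel (r = 0.99), a bile-salt-stimulated lipase, Sycn (0.99), a protein of zymogen granules, and Ctrl (0.98), a chymotrypsin-like protease. Rnase1 (0.92), the pancreatic ribonuclease, followed, and these 4 probes were the only ones over 0.9. Next came Klk1 (0.88), Spink1 (0.88, Spink3 in the files), a trypsin inhibitor, Klk1b5 (0.85), Egfbp2 (0.85), Nacc1 (0.84), Klk1b3 (0.82), Itih4 (0.80) and Pygb (0.79). Kallikreins of the Klk1 family are near-identical in sequence, so their probes may share signal. With the other Amy2a5 probe in the mean, a choice made after the values were seen, the same 12 genes were closest and no r moved by more than 0.0089.

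Over the 17 livers alone the likeness to the members' mean was lower. It was 0.74 for Cel, 0.45 for Sycn, 0.17 for Ctrl and -0.19 for Rnase1. Nacc1, a transcriptional regulator, had 0.55, but 1314 of the 25719 probes compared had an r over 0.5 in these livers. Pygb, brain-type glycogen phosphorylase, was high in HF 11, at 2.31, but not in HF 5, at 0.089.

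Of the list of other acinar genes 30 were measured. In HF 5 and in HF 11, 24 of the 30 were well above background, against 17 in HF-Q 8, 20 in HF 7 and 7 to 11 in each of the other livers. For the members the same counts were 10 of 10 in all 4 livers and 4 to 7 in the others. For 19 of the 30 HF 5 and HF 11 were the highest livers. Their median log2 ratio over the list was 0.83 in HF 5 and 1.28 in HF 11, against -0.38 to -0.10 in the 17 livers. Of the 6 with the highest mean Cy5, Klk1, Cel, Ctrl, Spink1 and Sycn had log2 ratios of 0.71 to 2.36 in HF 5 and 1.13 to 2.74 in HF 11. Erp27, an endoplasmic reticulum protein, did not share this: it was at 0.039 in HF 5 and 0.061 in HF 11, inside the range of -0.085 to 0.31 in the 17 livers.

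Markers of other tissues that lie near the liver, or could be in the sample, were set beside the members. Over 16 pancreatic islet genes the median log2 ratio was 0.01 in HF 5 and 0.01 in HF 11, inside the range of -0.08 to 0.07 in the 17 livers. Of them, 4 were well above background in HF 5 and 3 in HF 11, against 3 to 7 in the 17 livers. Mafa was at 0.031 and 0.19 in HF 5 and HF 11, and Ins2, insulin, at -0.046 and -0.10. Ins1, the other insulin gene, and Sst, somatostatin, added after their values were seen, were not well above background in either liver.

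For duct and bile duct genes (11), intestine (15), stomach (10), white fat (9), mesothelium (6), red blood cells (8), lymphoid cells (9) and skeletal muscle (8), no gene had HF 5 and HF 11 as its highest livers. The same count was 0 of 15 for hepatocyte genes. List medians in HF 5 and HF 11 lay between -0.21 and 0.27 for these lists, against 2.13 and 2.76 for the members. The fat markers gave the lowest, -0.21 in HF 11, where the 17 livers spanned -0.20 to 0.19, and mesothelial markers were at 0.14 there, above a range of -0.22 to 0.07. Red blood cell markers gave the highest, 0.27 in HF 5, above a range of -0.24 to 0.25.

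Summed levels overlapped between the diets and differed in the highest HF livers. Over the 10 members, at the brightest probe of each, the sum of normalized Cy5 ran from 3163 through 3691 to 4924 in HF-Q livers and from 3362 through 3684 to 30507 in HF livers. The Amy2a5 probe in this sum is the one shared with Amy1, which supplied 51.6% to 63.2% of it in the 17 livers and 12.2% in HF 11. With the other Amy2a5 probe, a choice made after the values were seen, the sum was 2072, 2288 and 4108 in HF-Q livers, against 2064, 2222 and 47729 in HF livers. The other acinar genes summed to 3532, 3724 and 5105 in HF-Q livers, against 3649, 3709 and 24780 in HF livers. Islet genes summed to 2591, 2716 and 4890 in HF-Q livers, against 2585, 2733 and 2836 in HF livers. Mafa was the brightest of them, at a mean log2 Cy5 level of 10.28, against 7.59 for Ins2, the next. The value of 4890 came from HF-Q 5 and the probe of Pdx1, a transcription factor of islets named after its values were seen. Its Cy5 signal was 3433 there, against at most 54.1 in any other liver. The log2 ratio of Pdx1 was 2.32 in HF-Q 5, and over the 17 livers its lowest was -0.25 and its median 0.064. Whether this single spot measured the transcript was not tested. Without Pdx1 the islet sums were 2511, 2608 and 2881 in HF-Q livers, against 2505, 2657 and 2756 in HF livers. The part that RNA from acinar cells had in the members' levels in HF-Q 8, HF 5, HF 7 and HF 11, apart from transcription within the liver, was not tested.

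**Figure D4:**
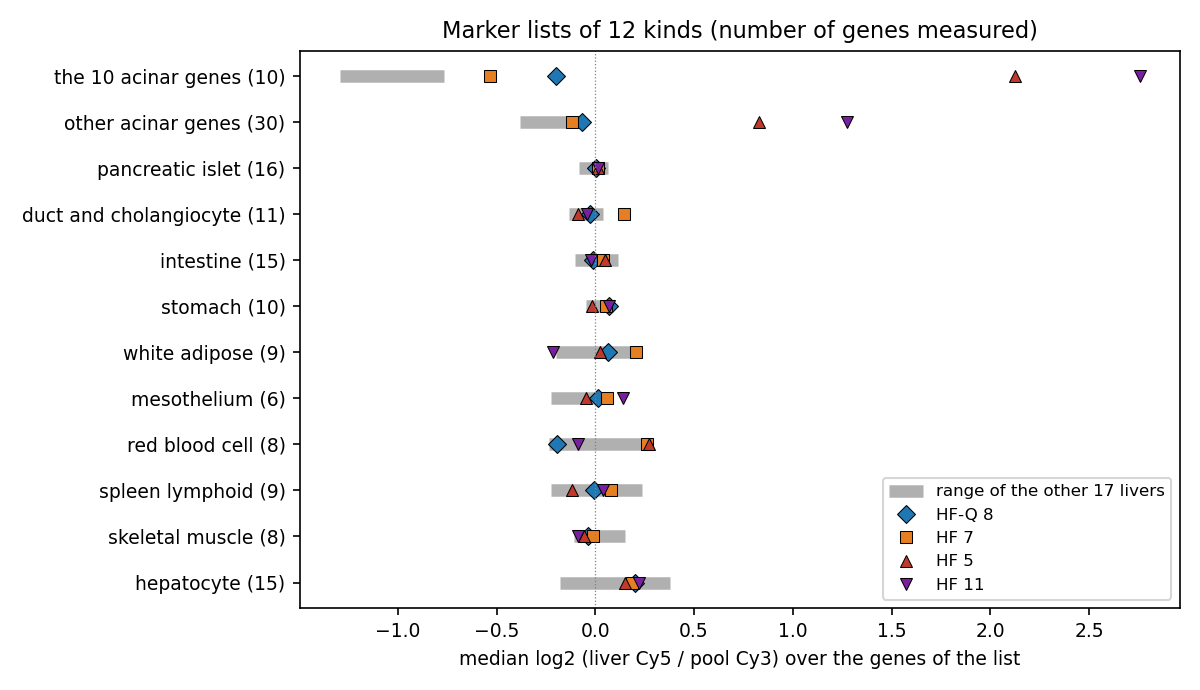
Median log2 ratio over the genes of each marker list (horizontal axis) in HF-Q 8, HF 7, HF 5 and HF 11 (symbols) and the range of the other 17 livers (grey bars), with the number of genes measured beside each list. HF 5 and HF 11 are far right for the members and the other acinar genes and between -0.21 and 0.27 for every other list.

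Whether the members also varied together among the 17 other livers was asked for each pair of the 10 genes at the brightest probe of each, which for Amy2a5 is the one shared with Amy1. With separate clusters of livers no correlation between members over all 21 is given. Over 17 livers the 45 pairs had a median Pearson r of 0.35 (-0.53 to 0.69) and a median Spearman rho of 0.31, and r was above 0 in 36. Of the 9 pairs with r below 0, 8 included Amy2a5, the lowest, with Cela3b, among them. With the other Amy2a5 probe the median was 0.35 (-0.48 to 0.69), r was above 0 in 37 pairs, and 7 of the pairs below 0 included Amy2a5. The permutation test (100000 resamples, two-sided) gave an unadjusted p under 0.05 for 14 pairs and passed 0 after Benjamini-Hochberg adjustment over 45, with a lowest adjusted p of 0.053. The highest r was 0.69, between Pnlip and Cpb1 (rho 0.72, adjusted p = 0.053 in the permutation test, 0.81 without the 2 livers farthest from the median of Pnlip). Both genes were near background in these livers.

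The correlation differed with where it was taken. The median r was 0.40 in HF-Q and 0.059 in HF livers, and 0.053 on slide 2 and 0.53 on slide 3, while slide 1 held too few of the 17 livers. It was 0.22 without the 2 farthest livers, HF-Q 7 and HF-Q 6. With the scanner software's processed signals it was 0.13, and with Cy5 alone 0.096. The 2 probes of Clps correlated at 0.47 and those of Amy2a5 at 0.63 over the same livers.

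In the contrast of the diets all 12 probes had a lower mean in HF-Q livers, and none passed the test. The log2 difference, HF-Q minus HF, ran from -0.76 ± 0.51 (SE) for Amy2a5 A_55_P1996314 to -0.12 ± 0.092 for the Amy2a5 probe shared with Amy1, with a median of -0.55. Adjusted p-values from limma were 0.958 to 0.986. Unadjusted they were 0.149 to 0.284, and the permutation test gave 0.260 to 0.455. Thus 0 of 12 member probes were called, where 0.0% of the 26291 kept probes and 0.0% of all 55681 were called. At an unadjusted p under 0.05 limma gave 5.65% of kept and 5.14% of all probes, and 0 members. A lower mean in HF-Q, whatever its p, was found at 52.4% of kept and 50.3% of all probes.

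The lower mean rested on HF 5 and HF 11. Pnlip averaged -1.39 ± 0.42 in HF-Q livers and -0.73 ± 1.84 in HF livers (SD, n = 10 and 11, log2 ratio), and its medians were -1.36 in HF-Q and -1.62 in HF livers. Over the 12 probes the SD was 0.18 to 0.42 in HF-Q and 0.26 to 1.92 in HF livers. Leaving out HF 5 and HF 11, a choice made after the values were seen, the difference was -0.02 to 0.18 (median 0.079), above 0 for 11 of 12 probes, with limma's adjusted p at 0.945 or more. Without HF-Q 8 and HF 7 as well it was -0.01 to 0.22. Cpb1 then had the lowest unadjusted p, 0.0066, at 0.22 ± 0.075, and an adjusted p of 0.964.

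Slide and diet were not balanced for the high livers. HF 5 and HF 11 were 2 of the 3 HF livers on slide 1, which also held 4 HF-Q livers, and HF-Q 8 and HF 7 both lay on slide 3. Each of these pairs held neighbouring places: HF 11 and HF 5 in row 2, columns 2 and 3, and HF 7 and HF-Q 8 in column 4, rows 1 and 2. Whether place on the slide had a part in their levels was not tested. On slide 1 the difference was -2.96 to -0.40. On slide 2, with 2 HF-Q and 4 HF livers, it was -0.14 to 0.18, and on slide 3, with 4 of each, -0.11 to 0.27. With slide as a block it was -0.95 to -0.15. Without HF 11 alone it was -0.37 to -0.056 and without HF 5 alone -0.45 to -0.092. On the scanner software's processed signals it was -1.25 to -0.13.

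**Figure D5:**
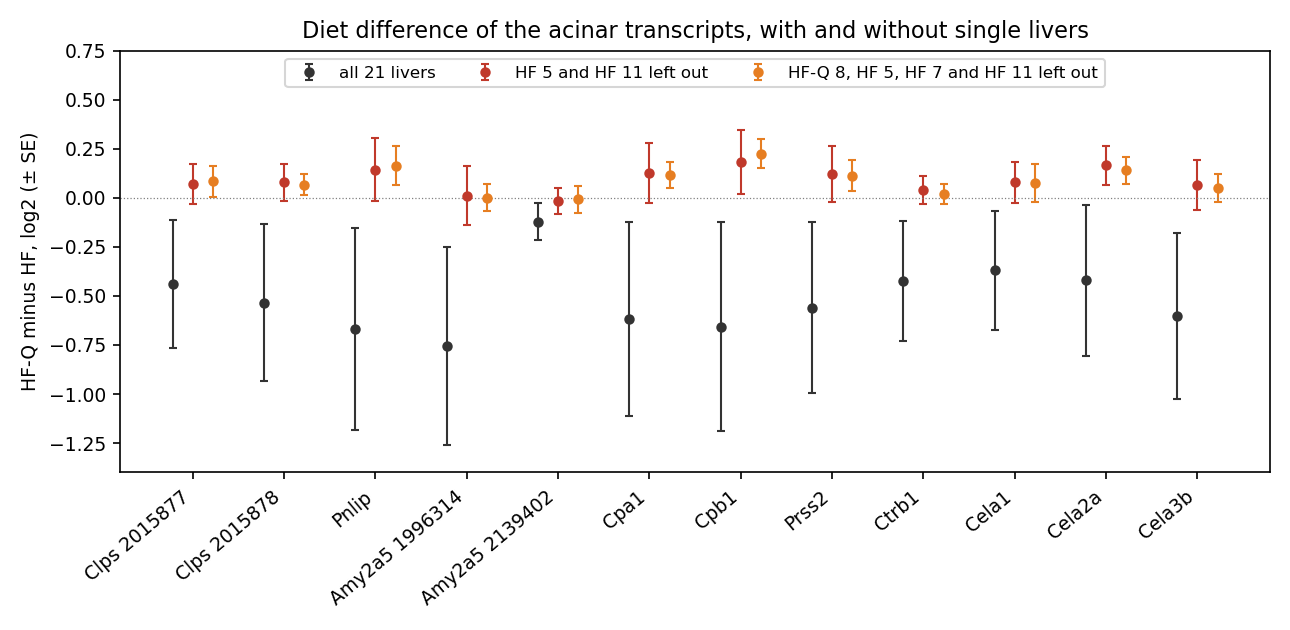
Log2 difference HF-Q minus HF with its SE for the 12 member probes, from all 21 livers (black), without HF 5 and HF 11 (red), and without HF-Q 8, HF 5, HF 7 and HF 11 (orange). Black points lie between -0.76 and -0.12, and red and orange points between -0.02 and 0.22.

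The kept genes of the other acinar list followed the members in this contrast: 0 of 8 passed, 7 were lower in HF-Q, and the median difference was -0.25, or 0.02 without HF 5 and HF 11. For the 6 members kept the medians were -0.42 and 0.08. The median over all kept probes was -0.0034. For the other lists 0 genes passed. White fat was the list whose median moved most when HF 5 and HF 11 were left out, to -0.15 against -0.10 with all livers.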

How the data were processed

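Livers of 21 mice (10 HF-Q, 11 HF) were each measured on 1 array, and groups were taken from the samples' titles. The scanner output deposited by the authors holds, for Cy5 and Cy3, the mean intensity of each spot and of its surroundings without normalization, per the file headers, and an intensity that the software had corrected for background and dye. The software was Agilent Feature Extraction 10.7.3.1, per the submitters' processing notes. A second deposited table gives log2 values for 34373 probes, all 12 member probes among them. Its columns correlated with log2 Cy5 at r = 0.978 to 0.989 and with log2 Cy3 at 0.972 to 0.982, and every median was 7.92. The step behind those equal medians is not stated in the labels, and the table was used as an alternative only.

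With limma 3.58.1 (R 4.3.3), normexp (offset 50) corrected the background and a loess curve per array normalized Cy5/Cy3. Controls and outlying or uneven spots were given weight 0 there and dropped afterwards, and spots of a probe were averaged. The normexp offset draws log2 ratios of dim probes toward 0. The diets were compared (HF-Q minus HF) with limma's moderated test, two-sided, with Benjamini-Hochberg adjustment and a threshold of 0.05, over 26291 kept probes or, for members not kept, over all 55681. Raw Cy5 signals are spot means before background subtraction. Excesses and shares of the sum use the processed intensity, which was not normalized between arrays.

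The members and lists were chosen with earlier results of these data known. Named were all member probes, the 12 genes most like the members' mean, the 6 brightest other acinar genes and at most 2 genes of each other list, and any gene outside that rule is said to be so or is counted among the probes high in HF 5 and HF 11. Gene names are those of the files, updated through RefSeq accessions. Probe coordinates are those of the files (NCBI37), and promoters are RefSeq's (GRCm38.p6). Tests were tested on simulated data. Some probes and sequences are not reported here.

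Alternatives changed the background correction, the normalization, the filter, the variance model, array weights, slide and row as blocks, single slides, and each array left out in turn. Leaving out HF 5 and HF 11, or these with HF-Q 8 and HF 7, was added after seeing the data, as was the Amy2a5 probe not shared with Amy1 in place of the brightest probe of that gene.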

Additional observations from a re-analysis of the deposited data

Results flagged for a closer look

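Within the 10 HF-Q livers, 7 of 12 member probes had a liver far from the others by Dixon's criterion (a gap that is large for the group's range), where chance gives about 1 in 20 groups. The probes share livers, so these are not 7 separate events, and the 11 HF livers were not examined this way. HF-Q 8 was the far liver for 6 probes, each time as the highest. Its log2 ratio was -0.19 for Clps A_55_P2015878, where the next liver stood at -0.67, and -0.50 for Amy2a5 A_55_P1996314, with the next at -1.43. It was -0.35 for Cpa1 against -1.28, and -0.63 for Cpb1 against -1.35. It was -0.27 for Prss2 against -1.07, and -0.19 for Cela2a against -0.74. For the Amy2a5 probe A_55_P2139402, which the files also assign to Amy1, HF-Q 7 was the far liver and the lowest, at -0.59, with the next at -0.19. HF-Q 7 was also the lowest liver at the other Amy2a5 probe, at -1.99, while at Cela1 it was near the top, at -0.12.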

How the results depend on the processing

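No member probe passed the test under any alternative, with a lowest adjusted p of 0.733. Under every alternative except the 4 that follow, all member probes tested kept a lower mean in HF-Q. Without HF 5 and HF 11 the difference, HF-Q minus HF, was above 0 for Clps A_55_P2015877 (0.071) and A_55_P2015878 (0.079), Pnlip (0.14), Amy2a5 A_55_P1996314 (0.011), Cpa1 (0.13), Cpb1 (0.18), Prss2 (0.12), Ctrb1 (0.040), Cela1 (0.078), Cela2a (0.17) and Cela3b (0.067). Without HF-Q 8 and HF 7 as well the same 11 stood at 0.085, 0.067, 0.16, 0.00057, 0.12, 0.22, 0.11, 0.021, 0.075, 0.14 and 0.052. On slide 2 alone it was above 0 for Amy2a5 A_55_P1996314 (0.077) and A_55_P2139402 (0.097), Cpa1 (0.033), Cpb1 (0.18), Prss2 (0.013), Cela1 (0.17) and Cela2a (0.052). On slide 3 alone it was above 0 for Clps A_55_P2015877 (0.10) and A_55_P2015878 (0.15), Pnlip (0.11), Cpa1 (0.27), Cpb1 (0.19), Prss2 (0.24), Ctrb1 (0.091), Cela1 (0.087), Cela2a (0.21) and Cela3b (0.13). In the first 2 of these alternatives the high HF livers are absent by construction, and slides 2 and 3 hold neither HF 5 nor HF 11. With each array left out in turn the differences ran from -0.87 to -0.056, and the values nearest 0 were those without HF 11. Over all kept probes 0 passed, and 1 passed with array weights (adjusted p = 0.0132), 1 on slide 2 alone (0.0429) and 1 without HF-Q 10 (1.73e-04), none of them a member probe. The cause was not tested.

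The replicate numbers do not pair the samples: same-numbered livers had correlations of -0.32 to 0.15, over 0.1 in 2 of 10, and 0 of the HF livers correlated best with its own number. With the replicate block 0 probes passed, and the members' differences were -0.37 to -0.056, the values without HF 11, which has no partner. The median r between members over 17 livers was 0.24 to 0.39 with each array left out and 0.096 to 0.53 under the other normalizations, and the ratio of the SDs in Cy5 and Cy3 was 7.23 to 7.41. Of the 12 probes, 5 rest on 3 to 5 livers with a signal above background, so their order among the low livers has no precision.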

Other observations

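Some other acinar genes differed from the members in HF 5 and HF 11. These and the genes of the next paragraph were chosen after their values were seen. Reg2, a secreted protein of the regenerating family, was higher in HF 5 than in HF 11, with log2 ratios of 3.03 and 1.80 and Cy5 signals of 1781 and 519, against -1.02 to -0.58 and signals of 37.2 to 54.5 in the 17 other livers. Reg1, of the same family, kept the members' order, at 2.03 in HF 5 and 2.69 in HF 11. Dmbt1, a secreted mucosal glycoprotein, was highest in HF 7, at 2.00, followed by HF 11 (1.33), HF-Q 8 (1.17) and HF 5 (0.80), with -1.24 to -0.27 in the rest. Tff2, a trefoil peptide, stood at 0.50 in HF-Q 8, 0.65 in HF 7, 0.64 in HF 5 and 0.90 in HF 11, against -0.50 to 0.16.

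Transcripts of the factors of the acinar program did not show the enzymes' pattern at the probes of this array. Ptf1a and Bhlha15 were not well above background on any of the 21 arrays, at log2 ratios of 0.058 and 0.24 in HF 5 and 0.12 and -0.055 in HF 11. Rbpjl was at 0.11 in HF 5 and -0.065 in HF 11, inside the range of -0.24 to 0.19 in the 17 livers. Ctrc, a chymotrypsin, was at -0.10 and -0.059, and Pla2g1b, the pancreatic phospholipase, at -0.19 and -0.35, neither above the 17 livers. Whether these probes detect their transcripts was not tested.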
